A study of Homo sapiens with 15 samples.

Results

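Cultures labelled HepG2, a human hepatoma cell line, were given 500 µM free fatty acids in 4 of the study's 5 groups, and these 4 groups together were compared with the control. The members are the 12 libraries of the loaded groups, taken by their titles from 15 libraries in all, and the other 3 are the blank control (NC). FFA received the fatty acids alone, while FCL, FCM and FCH received them with the anthocyanin cyanidin-3-rutinoside (C3R), a pigment of dark fruits, at 25, 50 and 100 µM. Each group had 3 libraries, which the series text calls biological replicates. The p-values reflect how much cultures varied within groups, pooled over all 5 groups and moderated by the spread of other genes. FCH replicate 3 appears to carry a batch adjustment in the deposited values, which would make the spread within FCH come out smaller. What the 4 loaded groups share is the fatty acids, since NC received neither agent and no group received C3R alone. Which fatty acids were used, what carried them, what NC received in their place and how long the cells were exposed is not given in the sources used here. All cultures are of a single line, and the labels call the cells hepatocytes from liver. The comparison asks what fatty acid loading changed whether or not C3R was present, which is why a gene is called common here only if it changed the same way in each of the 4 groups.

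Liver cells take up free fatty acids, activate them to acyl-CoA, and either burn them in mitochondria and peroxisomes or store them as triglyceride in lipid droplets. Fatty acids are ligands of the PPAR nuclear receptors, which switch on genes of fatty acid binding, oxidation and droplet coating, so these genes serve as a gauge of fatty acid entry. An overload, in particular of saturated fatty acids, is also known to engage the integrated stress response, through the transcription factor ATF4, and the oxidative stress response, through NRF2.

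The label was checked against hepatocyte markers first, and most of them were near absent in every library. Albumin (ALB), the most abundant product of hepatocytes and of HepG2, was at 0.095 to 1.68 TPM, where TPM is a length-normalized share of all transcripts. Alpha-fetoprotein (AFP) was listed at 0 in 12 of 15 libraries with a maximum of 0.13 TPM, apolipoprotein B (APOB) did not exceed 0.09 TPM, and the transcription factor HNF4A did not exceed 0.64 TPM. Of the 12 markers, 7 reached 1 TPM in any library. APOA1 lay between 6.18 and 14.7 TPM, APOA2 between 4.18 and 17.8 TPM and SERPINA1 between 6.95 and 14.2 TPM. The summed hepatocyte marker level was 34.5 to 43.5 TPM in NC and 32.8 to 50.6 TPM with fatty acids. The keratin gene KRT7, listed here as a cholangiocyte marker, was at 1626 to 2781 TPM, while its usual partner KRT19 was at 0.57 to 1.60 TPM. The data therefore go against the hepatocyte label, no other cell type is named here, and the cells are called by their label. Tested were 12950 genes, those at 1 TPM or more in 3 or more libraries, and single libraries had 11268 to 12293 genes at or above 1 TPM. Genes of the mitochondrial genome held 10.2% to 11.2% of the TPM in NC and 5.78% to 10.9% with fatty acids. Read depth is unknown, because TPM do not hold it, and values are therefore given without counting intervals. TPM are shares of the RNA of a whole culture, so a change in the number of cells of a type and a change in RNA per cell cannot be told apart.

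**Figure D1:**
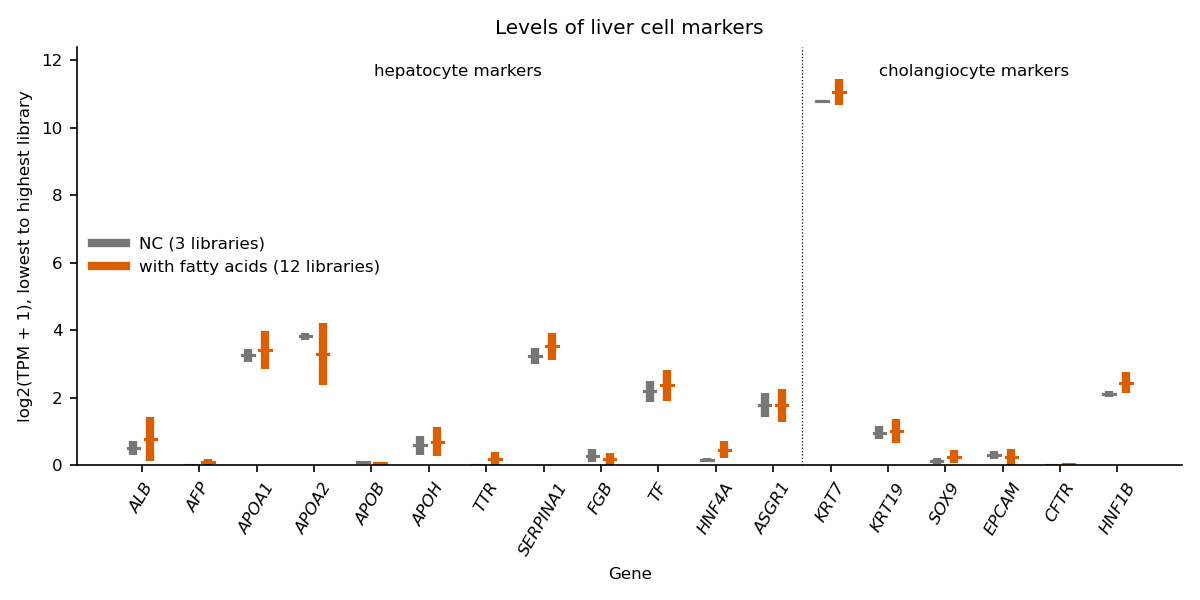
Levels of 12 hepatocyte and 6 cholangiocyte markers on the log2(TPM + 1) scale. Bars run from the lowest to the highest library of NC (3 libraries, grey) and of the 4 fatty acid groups (12 libraries, orange), and the short horizontal ticks mark the middle of each bar. ALB, AFP, APOB, TTR, FGB and HNF4A lie near the bottom of the scale in both sets, and KRT7 is the one gene near its top.

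With fatty acids more genes were called higher than lower, except without NC replicate 1, where the split turned to 563 higher and 603 lower, and with array weights, where it turned to 2053 and 2564. With the 4 groups weighted equally against NC, 1773 of 12950 genes (13.7%) were called at an adjusted p under 0.05 by limma on log2(TPM + 1), of which 1161 (8.97%) were higher and 612 (4.73%) were lower. The common set, called in the pooled comparison and in each of the 4 comparisons with the same sign, held 334 genes (2.58%), of which 255 (1.97%) were higher and 79 (0.61%) lower. The 4 comparisons share the 3 NC libraries, so a deviation of NC enters all 4, and the count is given as the rule fixes it. In 254 of the 255 common higher genes all 12 loaded libraries lay above all 3 NC libraries, and in 78 of the 79 common lower genes all 12 lay below. The same values chose these genes, so this is no further support for them. Over all tested genes, 1064 (8.22%) had all 12 libraries above NC and 391 (3.02%) had all 12 below. The 2 exceptions were RBM14-RBM4, a readthrough of 2 neighbouring genes, and the pseudogene SEPTIN14P19, both uncertain because they share sequence with other genes, and both named after their values were seen.

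The median log2 change was 0.96 over the common higher genes and -0.92 over the common lower genes, against 0.01 over all tested genes. A change of at least 1 on the log2 scale was reached by 117 of the 255 and by 33 of the 79. The medians of the 4 groups lay close together. The rule favours this, because a common gene had to be called with the same sign in each group. Over the common higher genes the median change was 0.99 in FFA, 0.99 in FCL, 0.98 in FCM and 0.88 in FCH, and over the common lower genes -0.89, -0.90, -0.96 and -0.88. The counts for each group alone were 708 higher (5.47%) and 247 lower (1.91%) in FFA, 7.37% together. They were 843 (6.51%) and 332 (2.56%) in FCL, 9.07% together, 821 (6.34%) and 868 (6.7%) in FCM, 13% together, and 391 (3.02%) and 257 (1.98%) in FCH, 5% together.

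The counts moved when single libraries were left out. The 1161 higher genes were 563, 746 and 682 without NC replicates 1, 2 and 3 in turn, and the 612 lower genes were 293 and 240 without NC replicates 2 and 3. The 255 common higher genes were 154 and 165 without NC replicates 1 and 2, and 148, 156 and 162 without FCH replicates 1, 2 and 3 in turn. The 79 common lower genes were 46 and 39 without NC replicates 2 and 3, 52 and 49 without FFA replicates 1 and 3, and 45, 51 and 47 without FCH replicates 1, 2 and 3. Every common gene kept its sign in all 15 of these fits, and 153 of the 334 stayed common in all 15, among them 104 with a log2 change of at least 1 in size. With quantile normalization the pooled split was 1371 higher and 1131 lower.

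Base composition moved with the pooled comparison, though unevenly between the groups. The deviations of each library from the gene means had a Spearman correlation with GC content. It was -0.0178, -0.264 and -0.491 in NC and -0.406, -0.326 and -0.205 in FFA, which lay within the NC range. It was 0.063, -0.254 and 0.403 in FCL, 0.311, 0.301 and 0.562 in FCM and 0.318, 0.0503 and 0.0462 in FCH. Across genes, which are not independent replicates, the pooled change had a Spearman correlation with GC content of 0.336, and the median GC content was 57.7% in the common higher genes, 53.7% in the common lower genes and 50.1% over all tested genes. With each library's trend over GC content and length removed, an alternative chosen after seeing the data, 248 genes were common higher and 124 common lower, and 203 and 70 of the genes above were among them. FCH replicate 3 also appears to carry a batch adjustment in the deposited values. With the assumed adjustment undone, 211 of the 255 and 64 of the 79 stayed common.

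**Figure D2:**
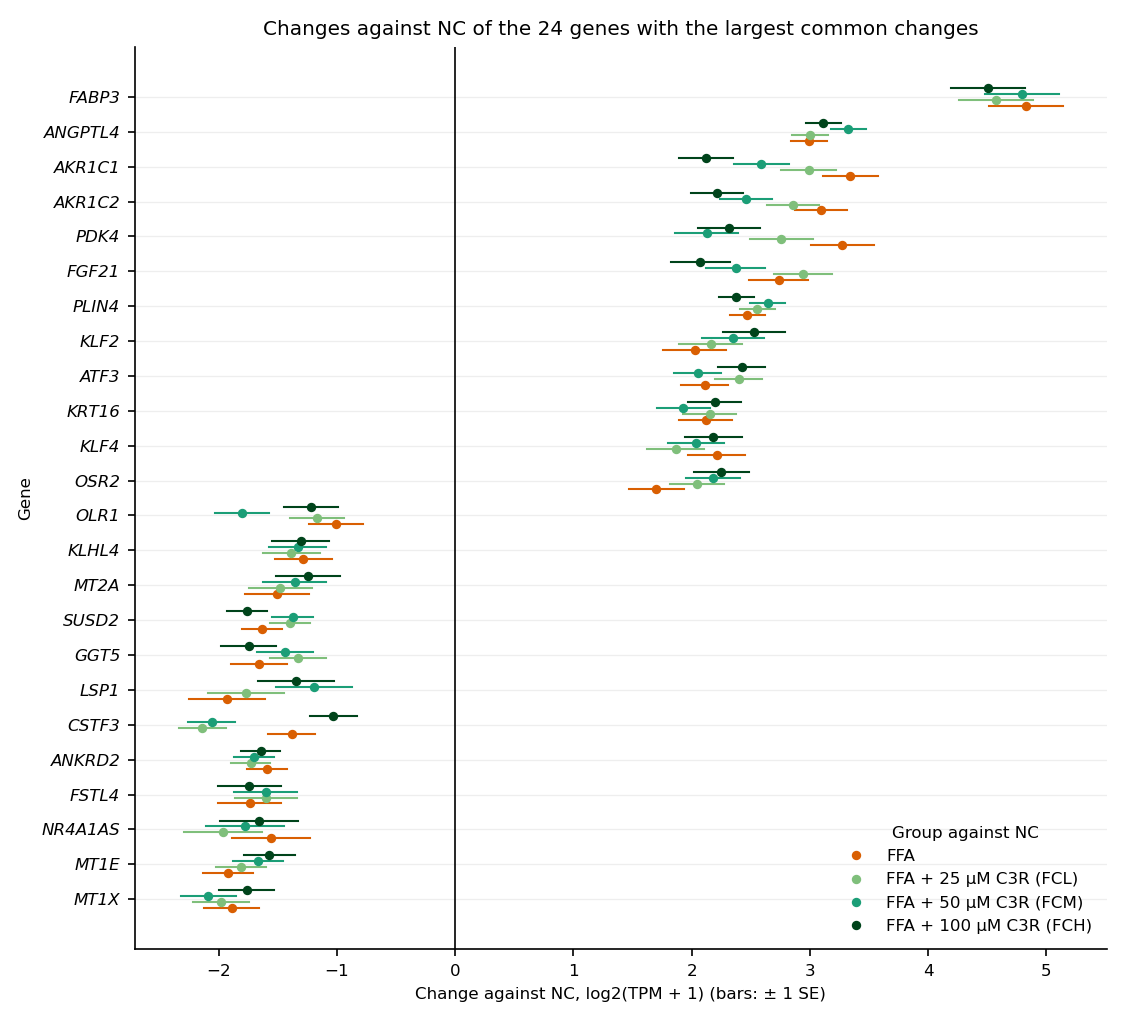
Changes against NC of the 12 largest common rises and the 12 largest common falls, on the log2(TPM + 1) scale, for FFA, FCL, FCM and FCH; bars are ± 1 standard error from the linear model. The 4 groups of a gene lie together on 1 side of 0 in every row, as the rule for common genes requires. FABP3 is the farthest to the right, at changes of 4.51 to 4.83, and the widest spread of the falls is in CSTF3, at -2.14 to -1.03.

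Genes of fatty acid binding, lipase control and droplet coating were among the largest rises. FABP3, the fatty acid binding protein first known from heart muscle, was at 3.06, 2.93 and 1.87 TPM in NC. It was at 119.5, 83.9 and 102 TPM in FFA, 65.95, 113 and 79.7 in FCL, 79.96, 172 and 68.4 in FCM and 58.9, 114 and 77.5 in FCH. Every loaded library was far above NC, and the 4 loaded groups overlapped one another (log2 change 4.67, SE 0.25, limma adjusted p = 3.2e-08). ANGPTL4, a secreted inhibitor of lipoprotein lipase, rose from 80.05, 101 and 104 TPM in NC to 856, 649.7 and 779.9 in FFA, 736, 714 and 840.0 in FCL, 872, 829.7 and 1203 in FCM and 821, 884 and 769 in FCH (log2 change 3.11, SE 0.12, limma adjusted p = 7.89e-10). The lowest loaded library thus held several times the highest NC value, and FCM replicate 3 was the highest of all.

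PDK4, a kinase that inhibits pyruvate dehydrogenase, the enzyme that turns pyruvate into acetyl-CoA, was at 8.71, 10.6 and 14.7 TPM in NC. It stood at 134, 71.8 and 163 TPM in FFA, at 106, 77.6 and 64.2 in FCL, at 58.1, 50.4 and 47.6 in FCM and at 49.01, 68.4 and 62.1 in FCH (log2 change 2.62, SE 0.21, limma adjusted p = 1.57e-06). All 12 libraries were above NC, and all 3 FFA libraries were higher than those of FCM and FCH, although the F-test among the 4 groups did not pass (adjusted p = 0.112). PLIN4, a coat protein of lipid droplets, was at 3.88, 5.20 and 4.43 TPM in NC and between 24.5 and 38.95 TPM (median 30.4) with fatty acids (log2 change 2.51, SE 0.12, limma adjusted p = 6.75e-09). PLIN2, the coat protein that usually marks droplets in liver cells, rose too but stayed scarce, at 0.235, 0.305 and 0.495 TPM in NC and between 1.06 and 2.92 TPM (median 2.00) when loaded (log2 change 1.14, SE 0.18, limma adjusted p = 0.00071). PLIN2 was not common without FFA replicate 3, nor without the libraries numbered 12 to 15 in the labels (FCM replicate 3 and all of FCH).

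Of the 22 tested PPAR target genes, 15 were called higher and none lower, and 11 were common, with a median log2 change of 0.80. Over all tested genes 8.97% were called higher and 4.73% lower, and every list count below is to be read beside these shares. In mitochondrial fatty acid oxidation 8 of 22 were higher, 5 of them common, and the median of 0.08 was close to that of all genes. The first of the 5, CPT1A, which loads fatty acids onto carnitine for import, rose from 26.1, 33.2 and 32.3 TPM to between 54.8 and 85.2 TPM (median 61.3) (log2 change 1.04, SE 0.12, limma adjusted p = 4.43e-05). HADHB and HADHA, the subunits of the trifunctional protein, rose by 0.98 (SE 0.11) and 0.70 (SE 0.11), ACADVL, the very long chain dehydrogenase, by 0.67 (SE 0.08) and ETFA, which passes the electrons on, by 0.87 (SE 0.11), with adjusted p-values from 3.73e-05 to 0.00071 by limma. In all 5 genes every loaded library lay above the NC libraries.

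Of the peroxisomal genes 4 of 16 were higher and 1 lower, and ECH1, which handles unsaturated acyl-CoA, was the 1 common gene. ECH1 stood at 667 to 713 TPM in NC and between 1112 and 1249 TPM (median 1157) with fatty acids (log2 change 0.74, SE 0.06, limma adjusted p = 2.34e-06), a small change with little spread. In fatty acid uptake, binding and activation 5 of 15 were higher, and the common ones were FABP3 and ACSL5, an acyl-CoA synthetase (1.32, SE 0.20). FABP1, the liver form of the binding protein, was at 0.278, 0.548 and 0.0079 TPM in NC and between 0.798 and 4.23 TPM (median 1.58) with fatty acids, and was called in the pooled comparison alone (log2 change 1.05, SE 0.24, limma adjusted p = 0.00977). Its call was lost without NC replicate 3 (adjusted p = 0.0741). CD36, a fatty acid importer, did not exceed 0.64 TPM and was not tested.

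In triglyceride synthesis and lipid droplets 4 of 15 were higher, and PLIN4, PLIN2 and AGPAT2 were common. AGPAT2, which adds the second acyl chain on the way to triglyceride, rose from 64.1, 70.1 and 58.2 TPM to between 100.4 and 127 TPM (median 109.5) (log2 change 0.79, SE 0.09, limma adjusted p = 4.44e-05). DGAT2, the last enzyme of that route, was called in the pooled comparison (0.48, adjusted p = 0.021) but lost the call without NC replicate 1 (0.0654) or 2 (0.127) and with GC and length trends removed (0.0558). In lipolysis 3 of 8 were higher. They were ANGPTL4, the hormone-sensitive lipase LIPE (1.30, SE 0.20) and the triglyceride lipase PNPLA2 (0.43, SE 0.13), and PNPLA2 lost its call without any 1 NC or FCH library, without FFA replicate 1 or 3 and without FCL replicate 3 (adjusted p from 0.0526 to 0.154). It also lost it with no filter on low values (0.101), with the replicate numbers as a block (0.0514) and with GC and length trends removed (0.115). PPARA and PPARG, the receptors themselves, had changes of 0.32 (adjusted p = 0.288) and 0.11 (0.648) that did not pass the test.

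**Figure D3:**
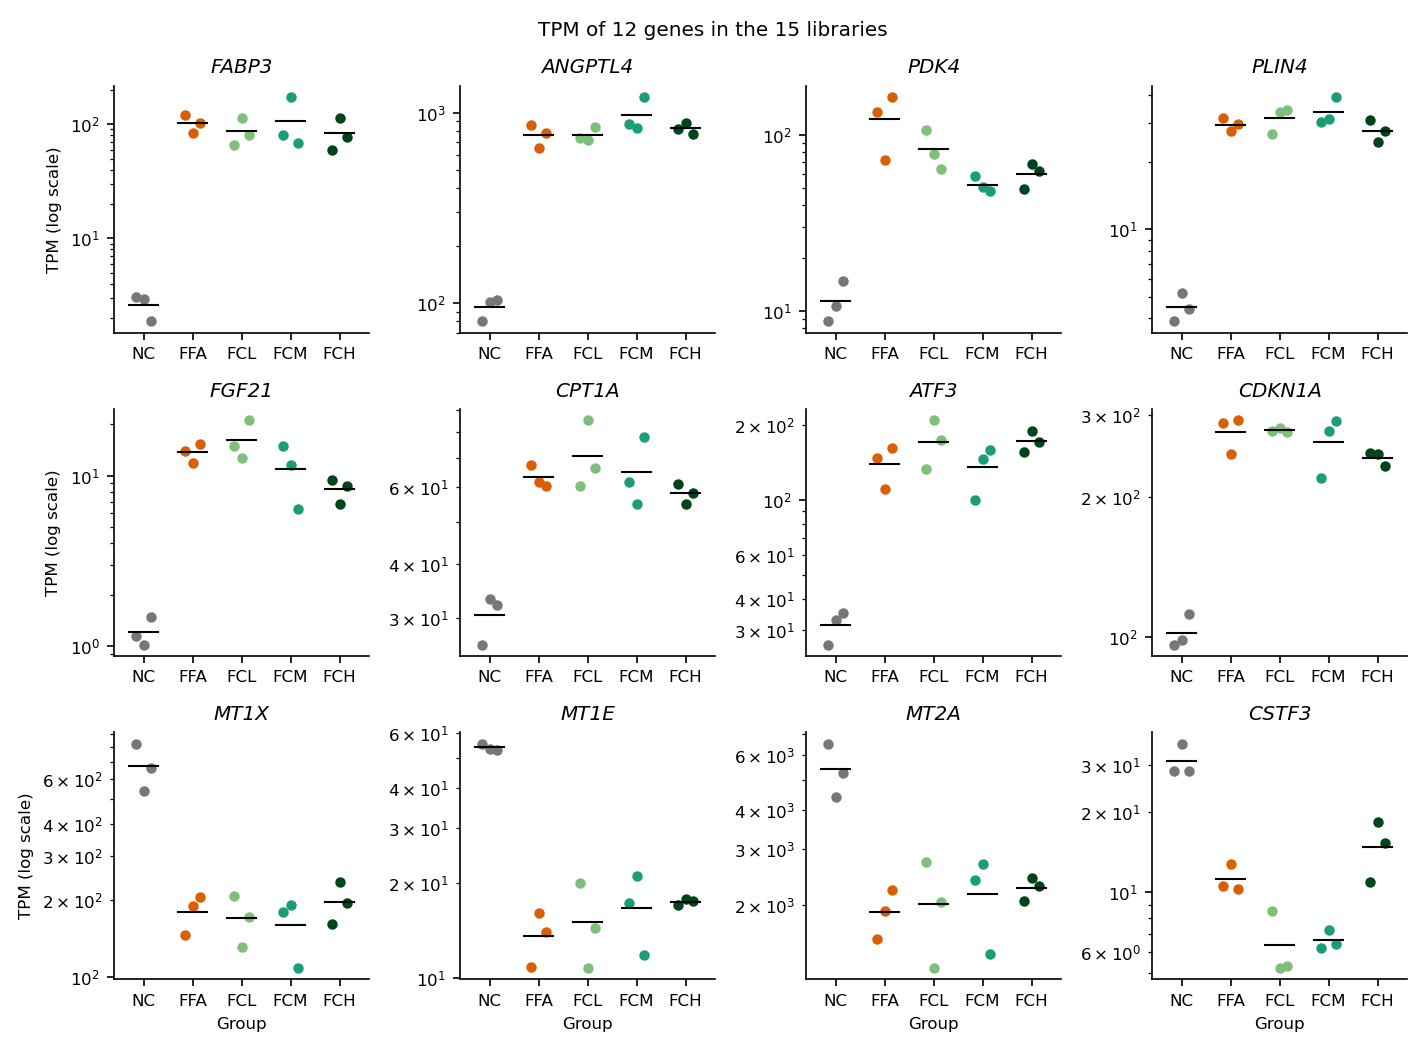
TPM of 12 genes in the 15 libraries on log axes whose range differs between panels. Points are libraries and horizontal lines group means (3 libraries each). NC lies below all loaded libraries in FABP3, ANGPTL4, PDK4, PLIN4, FGF21, CPT1A, ATF3 and CDKN1A and above them in MT1X, MT1E, MT2A and CSTF3, and CSTF3 is lower in FCL and FCM than in FFA and FCH.

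The 2 largest falls among common genes with a symbol and no overlap with NC were those of metallothioneins, small cysteine-rich proteins that bind zinc and copper and whose genes are switched on by the zinc sensor MTF1. MT2A, the most abundant, was at 6528, 4414 and 5268 TPM in NC. It was at 1548, 1911 and 2230 TPM in FFA, 2733, 1256 and 2037 in FCL, 2395, 2703 and 1394 in FCM and 2048, 2430 and 2287 in FCH (log2 change -1.40, SE 0.21, limma adjusted p = 0.000521). The ranges did not overlap, and the spread within the loaded groups was wide, from 1256 to 2733 TPM within FCL. MT1X went from 826, 538 and 661 TPM in NC to 146, 191 and 205 in FFA, 208, 131 and 172 in FCL, 180.0, 192 and 108 in FCM and 161, 236 and 195 in FCH (log2 change -1.93, SE 0.18, limma adjusted p = 7.88e-06). MT1E was at 55.4, 53.3 and 53.05 TPM in NC and between 10.8 and 21.03 TPM (median 16.6) with fatty acids (log2 change -1.74, SE 0.17, limma adjusted p = 8.49e-06). For MT1X and MT1E, too, every loaded library was below every NC library, and both stayed common with any 1 library left out, while MT2A did not without NC replicate 1, without FCH replicate 1 or without the libraries numbered 12 to 15 in the labels.

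MT1F, at 25.8, 17.96 and 30.00 TPM in NC and between 7.22 and 19.02 TPM (median 11.8) when loaded, overlapped NC, was called in the pooled comparison alone (log2 change -0.93, SE 0.22, limma adjusted p = 0.0113) and lost that call without NC replicate 1 (0.0560) or 3 (0.0870). Metallothionein genes resemble one another closely, which makes the split of reads between them uncertain. Of the 8 tested genes for metallothioneins and zinc handling 5 were lower and 1 higher, with a median of -0.79. The others called were the importer SLC39A10 (-0.65, SE 0.20), which was lower, and the zinc exporter SLC30A1, itself a target of MTF1, which was higher (0.60, SE 0.17).

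The promoters of the falling metallothioneins are shown because their zinc response elements are the known link between zinc and these genes. They are the 250 bases before the start of each gene, on the plus strand, from RefSeq on GRCh38.p14, and capitals mark each match to the core of the metal response element, TGCACNC or TGCGCNC, on either strand. MT2A lies at chr16:56608334-56608583 and MT1X at chr16:56682220-56682469.
MT2A: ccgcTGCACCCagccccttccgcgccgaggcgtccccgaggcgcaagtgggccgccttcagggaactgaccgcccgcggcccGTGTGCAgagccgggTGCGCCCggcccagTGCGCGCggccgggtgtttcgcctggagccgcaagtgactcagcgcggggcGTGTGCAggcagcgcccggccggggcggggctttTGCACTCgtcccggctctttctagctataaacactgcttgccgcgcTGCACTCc
MT1X: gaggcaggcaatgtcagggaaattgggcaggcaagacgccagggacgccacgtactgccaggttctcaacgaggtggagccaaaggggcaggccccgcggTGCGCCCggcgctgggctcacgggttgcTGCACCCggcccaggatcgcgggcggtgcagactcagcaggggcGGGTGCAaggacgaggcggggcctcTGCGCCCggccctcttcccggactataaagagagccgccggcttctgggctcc
MT2A held 7 matches, 5 on the plus and 2 on the minus strand, and MT1X held 4, 3 on the plus and 1 on the minus strand, with no overlap between matches. Of 35116 promoters of this length 24.8% held at least 1 match, 0.37% at least 4 and 0.031% at least 7. MT1E and MT1F are named without a promoter. A match describes these letters and says nothing of whether MTF1 bound there.

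Genes of the integrated stress response rose in 12 of 30 and fell in 2, beside 8.97% and 4.73% of all tested genes. Of them 7 were common and higher. ATF3, a stress-induced transcription factor, rose from 26.2, 32.9 and 35.03 TPM to between 100.2 and 208 TPM (median 157), so that all 12 loaded libraries lay above NC (log2 change 2.25, SE 0.16, limma adjusted p = 4.3e-07). FGF21, a liver hormone controlled by both PPARA and ATF4, was at 1.14, 1.02 and 1.48 TPM in NC. It was at 14.02, 11.9 and 15.3 TPM in FFA, 15.02, 12.6 and 21.1 in FCL, 14.9, 11.6 and 6.40 in FCM and 9.42, 6.86 and 8.75 in FCH (log2 change 2.53, SE 0.20, limma adjusted p = 1.19e-06). The 3 FCH libraries were all below those of FFA and FCL, but the F-test among the groups did not pass (adjusted p = 0.193). PPP1R15A, which reverses the translational block of this response, rose by 1.51 (SE 0.15), the pseudokinase gene TRIB3 by 0.93 (SE 0.10), and SLC3A2, the heavy chain of an amino acid transporter, by 0.44 (SE 0.07).

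The other 2 common members were CEBPB (0.75, SE 0.13), which stayed common in 6 of the 15 fits with a library left out, and VLDLR, a lipoprotein receptor (0.92, SE 0.18). ATF4 itself was called in the pooled comparison (0.47, SE 0.09). The 2 that fell were CTH, of cysteine synthesis (-0.74, SE 0.11), and DDIT4, an inhibitor of mTORC1 (-0.40, SE 0.10). DDIT4 differed between the loaded groups (F-test adjusted p = 0.00125), with changes of -1.05, -0.62, 0.29 and -0.23 in FFA, FCL, FCM and FCH, so its pooled change averages unlike groups, and the F-test held in all 15 fits with a library left out. Endoplasmic reticulum chaperones and unfolded protein response genes rose in 4 of 22 with none common and a median of 0.03, and HERPUD1, XBP1, P4HB and ERN1 were the 4. The list of heat shock chaperones, mostly cytosolic, had 1 of 14 higher, HSPA1A (0.48, SE 0.14), beside 8.97% of all tested genes. Lower were 3, beside 4.73% of all tested genes. They were the cytosolic HSP90AA1 (-1.06, SE 0.24) and the mitochondrial chaperonin genes HSPD1 and HSPE1.

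The FGF21 promoter is shown because it carries a match to the composite element that ATF4 binds together with a C/EBP protein. It is the 250 bases before the start, at chr19:48755274-48755523 on the plus strand of GRCh38.p14 from RefSeq, with the match to TGATGNAAN, here on the minus strand, in capitals.
FGF21: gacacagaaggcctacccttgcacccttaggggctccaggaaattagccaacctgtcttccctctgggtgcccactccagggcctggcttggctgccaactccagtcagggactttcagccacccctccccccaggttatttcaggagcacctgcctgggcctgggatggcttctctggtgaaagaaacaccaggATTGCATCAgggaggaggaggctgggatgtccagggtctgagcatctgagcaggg
The match begins 55 bases before the start. Searched on both strands, the motif was in 3.13% of 35116 promoters and in those of 2 of the 7 common genes of this list, FGF21 and ATF3. These 7 genes had 13 promoters. Here and for the other groups the percentages are per promoter, while a gene counted if any of its promoters matched, so the units are unlike. For the other groups, the PPAR half-site repeat AGGNCANAGGNCA was in 0.268% of all promoters and in none of the 11 common PPAR targets, the sterol element TCACNCCAC in 0.883% and in none of the 2 common cholesterol genes with a promoter sequence. The antioxidant element TGACNNNGC was in 10.9% and in 1 of the 5 common NRF2 targets with one (EPHX1), and the cyclic AMP element TGACGTCA in 1.65% and in 1 of the 8 common immediate early genes with one (JUND). No match says only that these letters are not in the 250 bases.

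NRF2 targets are enzymes and carriers that detoxify reactive compounds. Of 28 tested, 16 rose and none fell, with a median of 0.57, and 8 were common. AKR1C1, which reduces steroids and reactive carbonyls, was at 14.8, 11.4 and 13.4 TPM in NC and between 56.3 and 189 TPM (median 90.2) with fatty acids (log2 change 2.76, SE 0.18, limma adjusted p = 2.65e-07). AKR1C2 was at 27.3, 24.8 and 31.3 TPM in NC and between 97.9 and 272 TPM (median 201) with fatty acids (log2 change 2.66, SE 0.17, limma adjusted p = 2.65e-07), and AKR1C3 rose by 1.72 (SE 0.16). These 3 genes are near-identical, which makes the split of reads between them uncertain. HMOX1, the haem-degrading enzyme, rose from 17.6, 21.00 and 23.5 TPM to between 45.5 and 104 TPM (median 62.6) (log2 change 1.59, SE 0.15, limma adjusted p = 8.49e-06). The loaded libraries of these 4 genes did not overlap NC, and in each the mean change was largest in FFA, then in FCL, FCM and FCH, without the F-test among groups passing (adjusted p from 0.0783 to 0.17). The other common members were FTH1, EPHX1, which hydrolyses epoxides (0.86, SE 0.08), the drug exporter ABCC3 (1.34, SE 0.15) and SRXN1, which restores peroxiredoxins (0.72, SE 0.10).

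FTH1, the ferritin heavy chain that stores iron, was among the most abundant messages and rose from 6926, 8258 and 7122 TPM to between 14962 and 30022 TPM (median 23668) (log2 change 1.66, SE 0.13, limma adjusted p = 1.37e-06), with no overlap. FTH1 has many processed copies in the genome, so its level is uncertain. Iron handling had 5 of 16 higher and none lower, of which FTH1, HMOX1, SMAD7 and the hepcidin inducer BMP6 (1.06, SE 0.14) were common. The light chain FTL was the other (0.73, SE 0.12). Glutathione and antioxidant enzymes had 5 of 26 higher and 2 lower with a median of 0.04, beside 8.97% and 4.73% of all tested genes. The common ones were SOD2, the mitochondrial superoxide dismutase (1.12, SE 0.12), GPX1 (0.64, SE 0.08) and MGST3 (0.62, SE 0.11), the last in 7 of the 15 fits with a library left out. Targets of the aryl hydrocarbon receptor rose in 4 of 7. CYP1A1, the classic target, was low throughout, at 0.446, 0.786 and 0.216 TPM in NC and between 1.94 and 5.38 TPM (median 3.63) with fatty acids (log2 change 1.57, SE 0.16, limma adjusted p = 2.13e-05).

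Genes of cholesterol synthesis and uptake rose widely in the pooled comparison, but few were common. Of 25 genes 20 rose and none fell, with a median of 0.65, and 4 were common. The median was 0.78 in FFA, 0.82 in FCL, 0.55 in FCM and 0.35 in FCH. FDPS, which builds farnesyl units, rose from 609, 653 and 656 TPM to between 1007 and 1493 TPM (median 1172) (log2 change 0.91, SE 0.08, limma adjusted p = 5.17e-06). All loaded libraries were above NC in FDPS. DHCR7 (0.96, SE 0.12) and ACAT2 (0.89, SE 0.11) were also common, in 12 and 4 of the 15 fits with a library left out, and ACAT2 was not common with the replicate numbers as a block.

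INSIG1, which holds the sterol sensor in the endoplasmic reticulum, was at 17.02, 22.1 and 26.7 TPM in NC and between 39.7 and 155 TPM (median 54.2) with fatty acids (log2 change 1.49, SE 0.23, limma adjusted p = 0.000741), with group changes of 2.12, 1.71, 1.17 and 0.95 in FFA, FCL, FCM and FCH. MSMO1 and IDI1 had a steeper order, at 2.22, 1.59, 0.40 and 0.19 and at 2.07, 1.36, 0.22 and 0.35, with F-tests that missed the threshold (adjusted p = 0.0507 and 0.0565). SREBF2, the master regulator of the route, rose by 0.64 (SE 0.13). Among LXR targets and sterol efflux genes 2 of 7 rose and 2 fell. NR1H3, the receptor LXR alpha, was the common one (0.75, SE 0.09), NR1H2 rose by 0.45 (SE 0.11), and ABCG1, a sterol exporter and LXR target, fell by 0.58 (SE 0.13), as did MYLIP by 0.66 (SE 0.13). NR1H2 differed between the loaded groups (F-test adjusted p = 0.0436), with changes of 0.12, 0.21, 0.41 and 1.07. That call held in 8 of the 15 fits with a library left out. It was lost with the batch adjustment undone (F-test adjusted p = 0.0553), the replicate numbers as a block (0.0909) or no filter on low values (0.0784). It was also lost without the libraries numbered 12 to 15 (0.801), where FCH is absent.

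In lipogenesis, desaturation and elongation 3 of 15 rose, none of them common. They were FADS1 (0.66, SE 0.15), SCD (0.59, SE 0.14) and MLXIPL (0.70, SE 0.17). SCD, the desaturase that makes oleic acid, overlapped NC, had group changes of 0.94, 0.91, 0.43 and 0.09 and lost its call without NC replicate 1 (adjusted p = 0.0989) and in the fit with 2 groups (0.107). FASN (-0.25, adjusted p = 0.397), ACACA (-0.15, 0.428) and SREBF1 (-0.35, 0.116) did not pass the test, although SREBF1 was called lower without FCM replicate 3 (0.00658). Of the apolipoprotein and VLDL assembly genes none of 10 was called in either direction by limma, and 1 had an unadjusted p under 0.05, APOA2 (-0.70, unadjusted p = 0.0278).

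Immediate early genes, the first transcripts that growth and stress signals induce, rose in 18 of 22 with none lower and a median of 0.80, and 10 were common. KLF2 was at 2.56, 4.35 and 2.88 TPM in NC and between 11.8 and 27.4 TPM (median 20.8) with fatty acids (log2 change 2.27, SE 0.21, limma adjusted p = 5.66e-06), and its relative KLF4 at 2.42, 2.83 and 3.97 TPM and between 10.3 and 22.6 TPM (median 16.4) (log2 change 2.07, SE 0.19, limma adjusted p = 5.27e-06). Neither overlapped NC. The AP-1 genes FOSB (1.30, SE 0.19) and JUND (1.24, SE 0.18) rose, as did the phosphatases DUSP6 (1.62, SE 0.24) and DUSP5 (1.01, SE 0.15), which switch off MAP kinases. ZFP36, which destroys inflammatory messages, rose by 1.23 (SE 0.14), KLF6 by 1.10 (SE 0.16) and IER3 by 0.80 (SE 0.12). The nuclear receptor NR4A1 rose from 181, 273 and 278 TPM to between 338 and 883 TPM (median 527) (log2 change 1.19, SE 0.15, limma adjusted p = 0.000103). Its antisense partner NR4A1AS was among the largest falls, at 4.76, 3.56 and 1.26 TPM in NC and at most 0.87 TPM when loaded, with a median listed at 0 (log2 change -1.74, SE 0.26, limma adjusted p = 0.00047). The use of strand in the counting is not given in the sources used here, so reads of the pair may not be told apart, and NR4A1AS was not common without NC replicate 1, FFA replicate 1 or FCH replicate 1.

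TGF-beta feedback and matrix genes rose in 10 of 20 with none lower, and 6 were common. SMAD7, the feedback inhibitor of the pathway, rose from 6.56, 8.79 and 8.34 TPM to between 17.2 and 41.4 TPM (median 27.5) (log2 change 1.62, SE 0.19, limma adjusted p = 5.94e-05), and every loaded library was above NC. The collagen gene COL4A2 (0.70, SE 0.09) and the matricellular CCN1 (0.80, SE 0.11) rose, and PMEPA1 (1.26, SE 0.23) and VIM (0.70, SE 0.12) were also common. In the NF-kB and inflammatory list 6 of 12 rose, and the chemokine gene CXCL2 was the common one (1.20, SE 0.15), though not without NC replicate 2 or FCH replicate 1. Of the p53 targets 6 of 18 rose and 5 were common. CDKN1A, the cell cycle inhibitor p21, was at 96.5, 98.5 and 112 TPM in NC and between 219 and 292 TPM (median 276) with fatty acids (log2 change 1.36, SE 0.09, limma adjusted p = 2.65e-07), with little spread within groups. PHLDA3 (1.17, SE 0.10), GADD45A (1.25, SE 0.16), PLK3 (1.06, SE 0.15) and GADD45B (0.71, SE 0.10) were the others.

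Mitosis genes were called lower in 5 of 26 with none higher and none common. Their median was -0.31 pooled, and -0.04, -0.32, -0.73 and -0.37 in FFA, FCL, FCM and FCH. The 5 were CENPF, CCNB2, DLGAP5, BUB1 and TTK. DNA replication and S phase genes rose in 5 of 24, and the common pair was E2F1, the S phase transcription factor (0.75, SE 0.11), and the licensing factor CDT1 (0.72, SE 0.12), which stayed common in 10 and 5 of the 15 fits with a library left out.

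Autophagy and lysosome genes rose in 11 of 30 with none lower and a median of 0.26. SQSTM1, the receptor that carries cargo to the autophagosome and a target of NRF2, rose from 437, 558 and 461 TPM to between 1315 and 2354 TPM (median 1792) (log2 change 1.83, SE 0.14, limma adjusted p = 9.52e-07). The lysosomal protease gene CTSD rose from 646, 701 and 658 TPM to between 1544 and 2394 TPM (median 1858) (log2 change 1.46, SE 0.10, limma adjusted p = 3.66e-07), and neither gene overlapped NC. CTSL (0.92, SE 0.11) and the autophagy kinase gene ULK1 (0.90, SE 0.13) were the other common members, ULK1 not without NC replicate 1 or FCH replicate 1 or 2. CD68, a lysosomal glycoprotein that serves as a macrophage marker, was at 58.9, 52.8 and 61.5 TPM in NC and between 130.3 and 254 TPM (median 162) with fatty acids (log2 change 1.53, SE 0.17, limma adjusted p = 3.33e-05). The summed level of the 10 leukocyte markers was 54.6 to 63.6 TPM in NC and 135 to 259 TPM with fatty acids, nearly all of it CD68. The one other leukocyte marker tested, CSF1R, rose by 0.89 (SE 0.20). PTPRC, which defines leukocytes, did not exceed 0.01 TPM, and CD163, MARCO, CLEC4F and CD3E were listed at 0 in all 15 libraries. None of the 8 endothelial markers reached 1 TPM, and the summed stellate cell and fibroblast markers were 50.1 to 67.9 TPM in NC and 47.9 to 82.4 TPM with fatty acids, with COL3A1 called lower (-0.54, SE 0.14) and none of the 6 tested common.

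In glycolysis and hypoxia-responsive genes 6 of 26 rose. ADM, a vasodilator peptide gene induced by hypoxia, was at 50.4, 45.5 and 58.2 TPM in NC and between 115 and 309.8 TPM (median 189.9) with fatty acids (log2 change 1.88, SE 0.15, limma adjusted p = 1.69e-06), and NDRG1 (1.13, SE 0.20) was common in 8 of the 15 fits with a library left out. SLC2A1, the glucose transporter, rose in the pooled comparison (0.59, SE 0.12), with changes of 0.18, 0.30, 1.01 and 0.86. These differed between the groups (F-test adjusted p = 0.0436), a call that held in 5 of the 15 fits with a library left out. That call was lost with the batch adjustment undone (F-test adjusted p = 0.118), the replicate numbers as a block (0.0779) or no filter on low values (0.127). It was also lost without the libraries numbered 12 to 15 (0.443), where FCH is absent. Of 8 amino acid and urea cycle enzymes, ASS1, which makes argininosuccinate, rose from 531, 557 and 518 TPM to between 853 and 1308 TPM (median 1087) (log2 change 0.996, SE 0.08, limma adjusted p = 2.36e-06), and HPD, of tyrosine breakdown, fell from 14.7, 19.3 and 15.01 TPM to between 5.13 and 8.70 TPM (median 6.81) (log2 change -1.14, SE 0.14, limma adjusted p = 6.96e-05). Both were common and overlapped NC in no library. In the following lists of liver function, which leave out HPD, all calls were higher, beside 8.97% of all tested genes called higher. They were 2 of 12 liver-secreted plasma proteins (SERPINA3 and CFB), 1 of 6 gluconeogenesis and liver glucose genes (IGFBP1), 1 of 5 bile acid and xenobiotic genes (POR) and 3 of 9 hepatocyte transcription factors (CEBPB, CEBPA and RXRA). CEBPB alone was common.

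Interferon-stimulated genes went both ways, with 3 of 14 higher and 4 lower. OAS1, which senses double-stranded RNA, rose from 43.99, 50.7 and 46.2 TPM to between 95.95 and 136 TPM (median 109) (log2 change 1.20, SE 0.09, limma adjusted p = 8.22e-07). IFITM2, which keeps viruses from entering, fell from 823, 574 and 618 TPM to between 302 and 411 TPM (median 353) (log2 change -0.91, SE 0.11, limma adjusted p = 5.94e-05), and its near-identical neighbour IFITM3 fell by 0.60 (SE 0.11) and ISG15 by 0.74 (SE 0.14). IFITM3 and ISG15 stayed common in 10 and 4 of the 15 fits with a library left out. The large housekeeping lists are set beside all tested genes, of which 8.97% were called higher and 4.73% lower, with a median of 0.01. Called were 2 higher and 3 lower of 31 nuclear respiratory chain subunits (median -0.21), 1 and 1 of 13 genes of the mitochondrial genome (median -0.19), 2 higher of 29 cytosolic ribosomal proteins (median -0.02) and 2 lower of 26 proteasome subunits (median -0.09). MT-CO3 was the mitochondrial gene that fell (-0.80, SE 0.20) and MT-ND1 the one that rose (0.51, SE 0.13). Of the NDUFA and NDUFB subunits of complex I, a family chosen after its values were seen, 11 of 24 were lower and none higher.

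**Figure D4:**
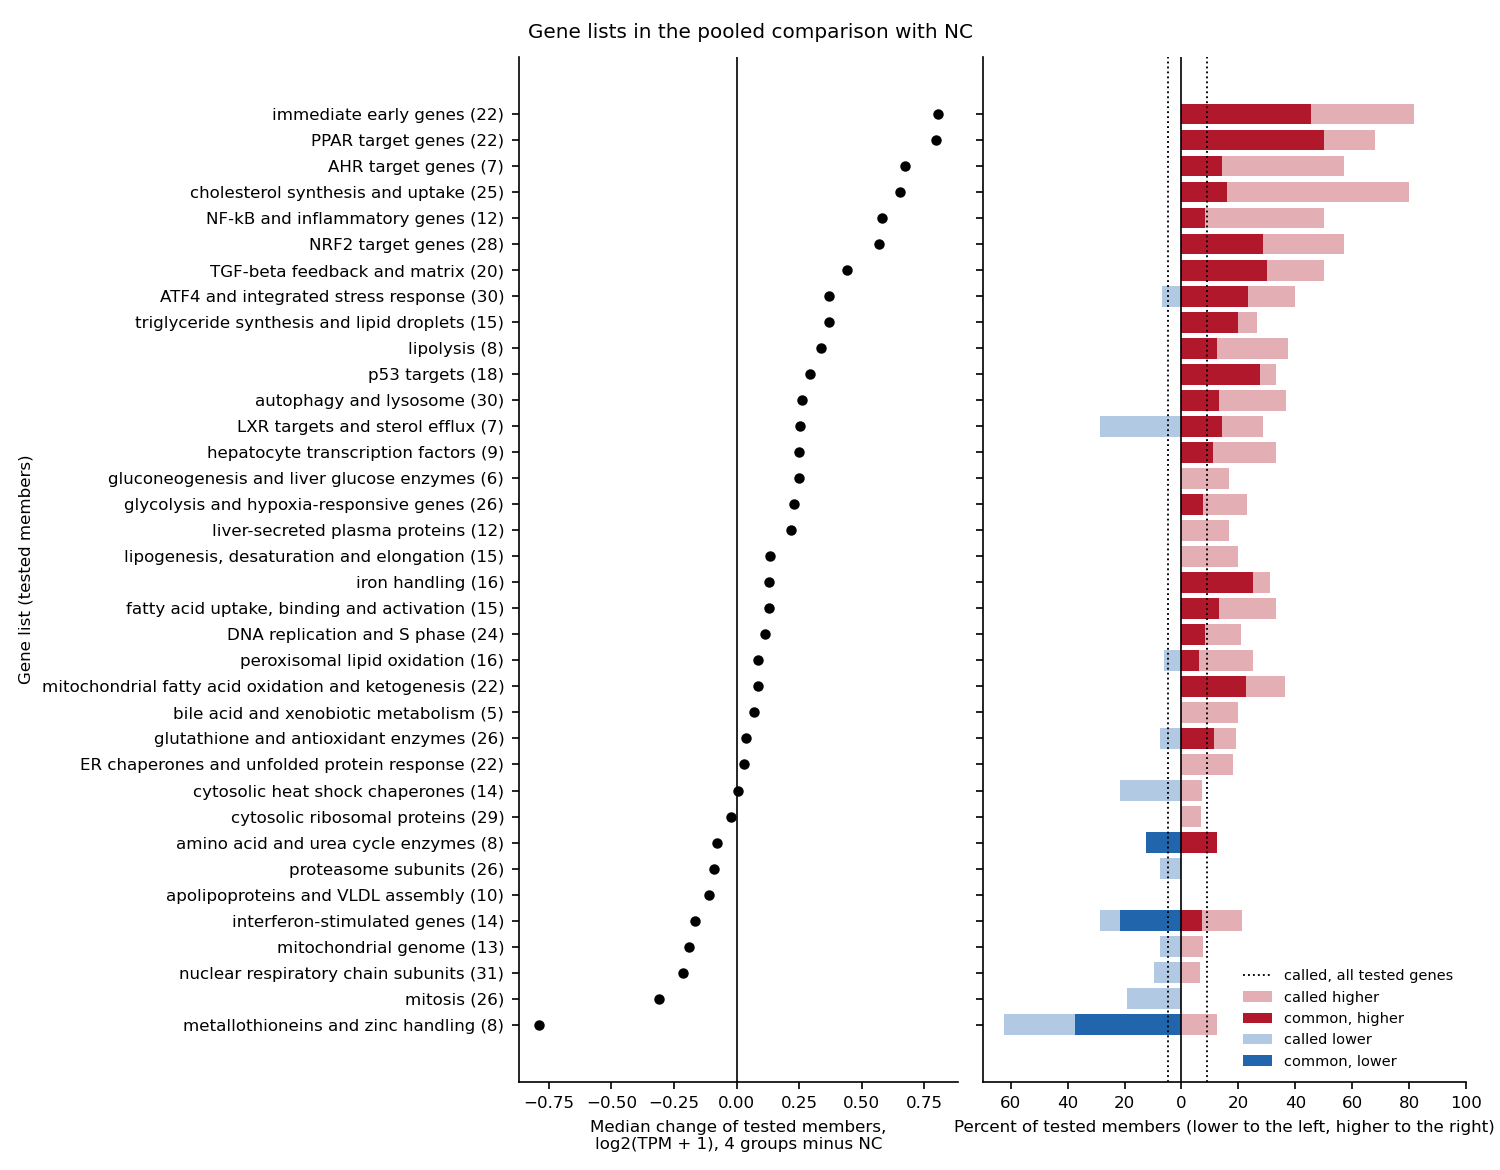
Left, median change of the tested members of each gene list with at least 5 of them, cell type marker lists left out, log2(TPM + 1), 4 fatty acid groups minus NC. Right, percent of tested members called higher (to the right) or lower (to the left) in the pooled comparison in pale colour, with the common part in dark colour, and dotted lines at 8.97% and 4.73%, the shares of all tested genes. Immediate early genes and PPAR targets lie at the top with medians of 0.80, and metallothioneins and zinc handling at the bottom with -0.79.

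Outside the lists, the largest common rises were KRT16, an epidermal keratin of stressed epithelia, at 3.06, 1.53 and 1.86 TPM in NC and between 8.72 and 16.7 TPM (median 12.1) with fatty acids (log2 change 2.10, SE 0.18, limma adjusted p = 2.41e-06), and OSR2, a zinc finger transcription factor, at 5.15, 9.02 and 7.47 TPM and between 20.7 and 49.3 TPM (median 32.6) (log2 change 2.04, SE 0.18, limma adjusted p = 4.72e-06). KRT16 has near-identical copies and is uncertain. Among the falls, ANKRD2, an ankyrin repeat protein known from muscle, was at 16.7, 17.3 and 14.8 TPM in NC and between 3.31 and 5.46 TPM (median 4.59) with fatty acids (log2 change -1.67, SE 0.13, limma adjusted p = 1.42e-06). SUSD2, a membrane protein, fell from 22.1, 26.9 and 25.8 TPM to between 6.08 and 12.1 TPM (median 7.67) (log2 change -1.54, SE 0.13, limma adjusted p = 3.63e-06), and GGT5, which processes glutathione conjugates, from 20.6, 17.1 and 15.1 TPM to between 3.99 and 10.00 TPM (median 4.99) (log2 change -1.55, SE 0.19, limma adjusted p = 6.96e-05). LSP1, an actin-binding protein of leukocytes, fell by 1.56 (SE 0.25) but stayed common in 7 of the 15 fits with a library left out. OLR1, a scavenger receptor for oxidised LDL, fell by 1.30 (SE 0.18), the follistatin-like FSTL4 by 1.67 (SE 0.21) and KLHL4 by 1.33 (SE 0.19), all 3 at under 12 TPM in every library. None of these falling genes had a loaded library within the NC range.

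Whether a common change differed in size between the 4 loaded groups was tested without NC, by an F-test among FFA, FCL, FCM and FCH. It called 42 of 12950 genes (0.324%), against 2152 at an unadjusted p under 0.05, and 1 of the 334 common genes. That gene was CSTF3, a subunit of the complex that cleaves messenger RNA before the poly(A) tail. It was at 28.4, 35.96 and 28.5 TPM in NC, 10.6, 12.8 and 10.3 in FFA, 8.54, 5.23 and 5.33 in FCL, 6.20, 7.27 and 6.42 in FCM and 10.9, 18.3 and 15.3 in FCH. All loaded libraries were below NC, those of FCL and FCM were below all of FFA and FCH, and the changes against NC were -1.38, -2.14, -2.06 and -1.03 (log2 change -1.65, SE 0.16, limma adjusted p = 7.47e-06, and 0.0436 for the F-test). The F-test of CSTF3 held in 5 of the 15 fits with a library left out, with adjusted p from 0.0232 to 0.141, and those it held in were the fits without NC replicate 1 or 3, FCL replicate 1 or 2 or FCM replicate 3. It did not pass with the replicate numbers as a block (0.0909) or with the batch adjustment undone (0.0568). The count of 42 was 126 without NC replicate 1, which moves it through the shared estimate of the spread, and 9 without NC replicate 2. It was 3 and 4 without FFA replicates 1 and 3, and 96, 120 and 9 without FCL replicates 1, 2 and 3. Without FCM replicates 1, 2 and 3 it was 6, 10 and 112, and without FCH replicates 1, 2 and 3 it was 5, 4 and 4.

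Next to CSTF3, the common genes with a change of at least 1 and the smallest p among the groups were AREG, AKR1C1, HMGN3 and PDK4, and none passed. AREG, a ligand of the EGF receptor, had changes of 2.00, 1.40, 1.19 and 1.83 in FFA, FCL, FCM and FCH (F-test adjusted p = 0.0584), AKR1C1 of 3.34, 2.99, 2.59 and 2.12 (0.0783), and HMGN3, a nucleosome-binding protein, of -0.67, -1.17, -1.44 and -1.18 (0.0975). PDK4 stood at 3.28, 2.76, 2.13 and 2.32 (0.112). At the other end, the changes of ERFE, a hormone that lowers hepcidin, were 1.05, 1.11, 1.11 and 1.07, of the microtubule linker CLIP2 1.15, 1.20, 1.16 and 1.23 and of the tight junction gene CLDN4 1.13, 1.15, 1.09 and 1.07. The falls of KLHL4, at -1.29, -1.39, -1.33 and -1.31, and of the ceramidase gene ACER2, at -1.0, -1.004, -1.07 and -1.02, were as even. Levels of ACER2 were low, at 1.28 to 2.55 TPM in NC and 0.303 to 0.753 TPM when loaded. On the log2(TPM + 1) scale, differences between groups at such levels come out too small. Over the 334 common genes the median range of the 4 changes was 0.28, and in 5 the smallest change was under 50% of the largest. The rule favours such small ranges, because it asks for a call in each group. The largest change was in FFA for 108 genes, in FCL for 68, in FCM for 107 and in FCH for 51.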

How the data were processed

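RNA was sequenced from 15 cultures labelled HepG2, 5 groups of 3. The deposited TPM, 1 table for 63241 genes, came from HiSat2 alignment and RSEM per the series' design text; for versions, annotation release and strand use, nothing is given in the sources used here. Libraries were stranded and poly(A)-selected per the labels' protocols. Not recorded in a label, 12775 genes carried an offset shared by all libraries but FCH replicate 3. A mean-only batch adjustment of that library was assumed and undone, and the recovered values were rounded to whole multiples of 0.01 TPM. Re-applied, it came within 0.00495 TPM of each deposited value. The rounding alone allows a gap of this size, so the match is no check of the assumed adjustment. Under this assumption FCH replicate 3 kept 41.6% of its deviation.

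Genes with at least 1 TPM in at least 3 libraries were tested on log2(TPM + 1), on which the changes of low genes come out too small, with limma 3.58.1 in R 4.3.3 (a mean per group, empirical Bayes with a mean-variance trend, two-sided, Benjamini-Hochberg over the 12950 genes, adjusted p under 0.05). The pooled comparison weighted the 4 fatty acid groups equally. Replicate numbers did not pair the libraries. The fit was run on simulated data with independent normal noise for each gene. These held no trend shared within a library and no batch adjustment, so they say nothing of how such features affect the calls.

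The members, the 41 gene lists and the rule for named genes were chosen with earlier results of these data known. The rule took the 12 largest common rises and falls with a symbol and no overlap with NC, up to 4 common genes per list by p, 22 lipid genes (20 tested), all tested metallothioneins, and among common genes with a log2 change of at least 1 the 5 least and 5 most even between groups. Other called members of a list are named to account for its count. Some members counted in the lists are not reported here by name. Promoter sequences were read from RefSeq. Alternatives were another pseudocount, 2 filters, 3 scalings, library weights, a replicate block, a fit with 2 groups, a minimum change, leaving out each library or those numbered 12 to 15, undoing the adjustment and, added after seeing the data, removing GC and length trends. No set test was run. No column was left out, and read depth is unknown.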

Additional observations from a re-analysis of the deposited data

Results flagged for a closer look

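CSTF3, which encodes a subunit of the cleavage stimulation factor, was the 1 common gene called by the F-test for a change against NC that differed between the 4 fatty acid groups. The F-test among FFA, FCL, FCM and FCH gave an adjusted p of 0.0436 over 12950 genes, by limma. The changes against NC were -1.38 in FFA, -2.14 in FCL, -2.06 in FCM and -1.03 in FCH, all on the log2(TPM + 1) scale. It was below NC in 12 of 12 libraries. The F-test called 42 genes in all, and that count was between 3 and 126 when single libraries were left out. The call of CSTF3 itself held in 5 of those 15 fits, with adjusted p between 0.0232 and 0.141. It was lost with no filter on low values (0.127), quantile normalization (0.0599), the replicate block (0.0909), the batch adjustment undone (0.0568), GC and length trends removed (0.05) and the libraries numbered 12 to 15 left out (0.471), where FCH is absent from the test. It held in the other 5 settings with an F-test.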

How the results depend on the processing

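Leaving out 1 library at a time, the pooled comparison called between 563 and 1331 genes higher and between 240 and 825 lower, the common set held between 148 and 309 higher and between 39 and 110 lower, and the F-test among fatty acid groups called between 3 and 126. Of the 80 named common genes 62 stayed common in all 15 of these fits, and no named common gene lost its pooled call in them. Among the other settings, median-of-ratios rescaling gave 952 lower and 262 by the F-test, and quantile normalization 1131 lower, 148 common lower and 193 by the F-test. No filter on low values gave 169 common higher and 13 by the F-test. Array weights, whose estimation stopped before it converged and gave FCH replicate 3 a weight of 100, gave 2053 higher, 2564 lower, 821 common higher, 442 common lower and 10082 by the F-test. A minimum log2 change of 1 gave 21 higher, 3 lower, 6 common higher and 0 common lower, and no F-test was made for it. The fit with 2 groups gives no common set and no F-test. The F-test called 2 without the libraries numbered 12 to 15 and 5 with the batch adjustment undone. Removing the trends over GC content and length, chosen after seeing the data, gave 124 common lower and 71 by the F-test. The cause of these shifts was not tested.

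The replicate numbers of the labels do not pair the libraries: 1 of 30 pairs with the same number had deviations correlated over 0.1 (range -0.35 to 0.154), and 0 of 15 libraries correlated best with its own number. With these numbers as a block 1040 genes were higher, 508 lower, 220 common higher, 65 common lower and 5 called by the F-test.

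Over the 94 named genes, PPARG, which was not called, had its pooled change of 0.11 reversed to -0.013 with array weights and, with single libraries left out, lay between -0.012 (without NC replicate 1) and 0.196. SREBF1 was called lower with median-of-ratios rescaling, quantile normalization, array weights, trends removed or libraries 12 to 15 left out, FASN with array weights or trends removed, and ACACA with quantile normalization. Without the libraries numbered 12 to 15, ACSL5, CCN1, CLDN4, GADD45A and NR4A1 were no longer common, and neither were GPX1 with median-of-ratios rescaling and SOD2 with trends removed. TPM give no read depth, so how far depth limits the genes under 1 TPM is unknown.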

Other observations

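Some gene families outside the lists also had several called members. They were chosen after their values were seen, so they are described with no test. All 3 tested PHLDA genes, which encode small pleckstrin homology proteins, were common and higher, PHLDA1 at a pooled log2 change of 1.04 (SE 0.10), PHLDA3 at 1.17 (SE 0.10) and PHLDA2 at 0.74 (SE 0.09). Of 6 aldo-keto reductase genes 4 were common and higher, and besides the 3 AKR1C genes this was AKR1B1, the aldose reductase, at 447 to 509 TPM in NC and 1018 to 1442 TPM with fatty acids (1.30, SE 0.08). Of the 3 NR4A nuclear receptors NR4A1 and NR4A2 (1.26, SE 0.18) were common and higher. Of 10 MAP kinase phosphatases, DUSP1 to DUSP10, 6 were higher and 3 of them common, DUSP4 among them (0.82, SE 0.12).

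Keratins went in both directions. Of 11 tested, 4 were higher and 3 lower, against 8.97% and 4.73% of all tested genes. The basal and stress keratins KRT17 (1.97, SE 0.13), KRT16 (2.10, SE 0.18) and KRT14 (1.51, SE 0.18) were common and higher, KRT17 from 105 to 137 TPM in NC to 369 to 594 TPM. KRT18, a keratin of simple epithelia, was common and lower, from 2280 to 2492 TPM to 1218 to 1628 TPM (-0.71, SE 0.07), and its partner KRT8 was lower in the pooled comparison (-0.48, SE 0.10) with overlapping libraries. Keratins have near-identical copies and pseudogenes, so the division of reads is uncertain. Small nuclear-coded mitochondrial subunits had more members lower than higher, though most were not called. Of 24 NDUFA and NDUFB subunits of complex I 11 were lower and none higher, with a median of -0.39, and NDUFA3 was the common one (150.4 to 194 TPM in NC and 82.6 to 111 TPM with fatty acids). Of 49 proteins of the large mitochondrial ribosomal subunit 12 were lower and 1 higher, and of 29 of the small subunit 4 were lower and 2 higher. None of them was common. MRPL39, among the 12, differed between the loaded groups (F-test adjusted p = 0.0436) and overlapped NC. Its changes were -0.10, -0.68, -1.12 and -0.45 in FFA, FCL, FCM and FCH, so its pooled change averages unlike groups.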
